A study of Mus musculus with 4 samples.

Results

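Shared CTCF peaks inside genes are the peaks of the medial ganglionic eminence (MGE) list on chromosomes 1 to 19 that met 3 conditions. Each overlapped a telencephalon peak by 1 bp or more, its midpoint lay inside an annotated gene, and the midpoint was more than 1 kb from every gene end. There were 6800 of them among the 24888 MGE peaks on these chromosomes (27.3%). They made up 46.1% of the 14742 MGE peaks there that had a telencephalon partner (interval 45.3 to 46.9%). The other shared peaks lay within 1 kb of a gene end (2759 peaks) or between genes (5183 peaks). Among MGE peaks without a partner 43.1% lay inside genes by the same limits (42.1 to 44.1%). Among telencephalon peaks without an MGE partner 48.9% did (48.1 to 49.6%). The midpoints just inside the distance limit lay 1003 bp (at Parp9), 1004 bp (at Cep131) and 1004 bp (at Hcrtr1) from a gene end. Those just outside it lay at 1000 bp (Spry1), 998 bp (Tmem95) and 997 bp (Adora1). Which peaks are shared, and where they lie, was fixed by that choice and is description. Widths, internal gene starts and sequence were not themselves used in it, but a wide peak meets an overlap of 1 bp more easily. The limit of 1 kb bounds position along the gene, and the internal starts below were held to the same limit.

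CTCF binding was mapped by ChIP-seq (sequencing of DNA fragments pulled down with an antibody) in mouse tissue labelled as embryonic day 13.5, although e14 stands in the header of the telencephalon file. MGE CTCF and telencephalon CTCF each had 1 library, made with a rabbit antibody against CTCF, and each tissue also had an input library (chromatin set aside before the antibody step), not analysed here. The MGE is the ventral part of the telencephalon that produces many cortical interneurons. No strain, genotype or number of pooled embryos is given in the labels, which describe an MGE dissection for every sample and name a different library kit for each tissue. Tissue and kit cannot be told apart, and with 1 library per tissue no test between tissues was possible. The lists give coordinates only, so depth is unknown. All intervals are exact 95% Clopper-Pearson intervals or, for medians, exact binomial ones. They treat peaks and genes as independent and cover counting error alone.

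CTCF is a zinc finger protein that binds a long, partly degenerate DNA sequence. It stops the cohesin ring as it extrudes chromatin loops, and so marks many loop anchors and domain borders. Inside genes, CTCF is also known to lie at alternative promoters and near alternatively spliced exons. Clustered protocadherins, whose alternative promoters carry CTCF sites in neurons, are the best known neural case.

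Some shared in-gene peaks lay at annotated starts of shorter or alternative transcripts, where sequence was at hand. The RefSeq start table has, on the mm10 assembly, a 300 bp window for each start, reaching from 250 bp before it to 50 bp after it. Of these, 4536 windows had a start inside a gene and more than 1 kb from every gene end. Shared in-gene peaks overlapped 129 of these windows (2.84%). Put the other way, 113 of 6800 shared in-gene peaks overlapped such a window (1.66%, interval 1.37 to 1.99%). Unshared in-gene peaks did so in 13 of 4374 cases in the MGE list (0.297%, 0.158 to 0.508%) and in 77 of 8007 cases in the telencephalon list (0.962%, 0.760 to 1.2%). A wider peak overlaps a window more easily, and shared in-gene peaks were wider (median 343 bp, against 244 bp in MGE and 220 bp in telencephalon). The part of width was not tested. By midpoint, 2.99% of shared in-gene peaks lay within 1 kb of such a start (interval 2.59 to 3.42%). For unshared MGE peaks this was 0.732% (0.501 to 1.03%) and for unshared telencephalon peaks 2.22% (1.91 to 2.57%). By either measure the share was highest among the shared peaks, although few of them lay at an annotated internal start.

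A core of the known CTCF sequence with 8 fixed letters was searched on both strands: CCA, 2 free letters, AG, 2 free letters and GGC. It does not match itself on the other strand. They were present in 22 of the 129 windows under a shared in-gene peak (17.1%, interval 11 to 24.7%). Among windows under unshared in-gene telencephalon peaks 7 of 80 held them (8.75%, 3.59 to 17.2%), and under unshared MGE peaks 1 of 12. Internal windows with no peak of either list held them in 85 of 4298 cases (1.98%, 1.58 to 2.44%), and the background over all 31396 windows on these chromosomes was 2.47%. Windows at gene ends under shared gene-end peaks gave 17.1% (171 of 999), like those inside genes. Base composition differed as well. Median GC content was 60% in windows under shared in-gene peaks (interval 56.7 to 63%) and 60.2% under unshared telencephalon peaks (57.3 to 64%). In windows without a peak it was 51.3% (51 to 51.7%). Under unshared MGE peaks it was 65.7%, but over 12 windows and with an interval of 41.7 to 77.3% that includes the value without a peak. The part of base composition in the motif shares was not tested. The 22 windows hold 21 distinct matches under 21 of the 113 peaks (18.6%, interval 11.9 to 27.0%). The reason is that 2 overlapping windows of Pdzd9 hold the same match, and both windows enter the counts and medians. Intervals over windows treat windows as independent, although several can lie under the same peak. In 21 of the 22 windows the letters lay inside the MGE peak, and in all 22 inside the telencephalon partner. Their median distance from the MGE midpoint was 54 bp (interval 20 to 116 bp) and from the telencephalon midpoint 63 bp (20 to 97 bp).

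Shown next are the 250 bases before 8 internal starts under shared in-gene peaks, all chosen after the values were seen. Of these, 7 show where the match lies at genes of known function, and Stag1, which encodes a cohesin subunit, shows a window without a match. Each is given 5′ to 3′ on the strand of the gene (mm10, RefSeq), and capitals mark the letters matched.
Scn2a (chr2:65668436-65668685, plus strand): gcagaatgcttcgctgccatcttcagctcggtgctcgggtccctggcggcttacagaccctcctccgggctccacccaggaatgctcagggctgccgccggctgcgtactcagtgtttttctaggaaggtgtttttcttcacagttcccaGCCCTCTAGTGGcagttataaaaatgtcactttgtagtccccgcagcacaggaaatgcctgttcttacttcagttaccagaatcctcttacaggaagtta
Kcnk13 (chr12:99964249-99964498, plus strand): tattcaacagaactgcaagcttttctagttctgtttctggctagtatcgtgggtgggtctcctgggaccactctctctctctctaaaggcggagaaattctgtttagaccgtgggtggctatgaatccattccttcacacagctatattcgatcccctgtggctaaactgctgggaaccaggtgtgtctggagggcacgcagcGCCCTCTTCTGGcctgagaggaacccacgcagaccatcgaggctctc
Csk (chr9:57645654-57645903, minus strand): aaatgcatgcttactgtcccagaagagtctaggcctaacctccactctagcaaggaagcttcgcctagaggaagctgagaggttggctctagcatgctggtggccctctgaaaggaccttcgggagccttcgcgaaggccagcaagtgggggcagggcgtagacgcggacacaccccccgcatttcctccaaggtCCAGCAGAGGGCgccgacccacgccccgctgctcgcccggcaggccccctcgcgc
Dgkz (chr2:91963564-91963813, minus strand): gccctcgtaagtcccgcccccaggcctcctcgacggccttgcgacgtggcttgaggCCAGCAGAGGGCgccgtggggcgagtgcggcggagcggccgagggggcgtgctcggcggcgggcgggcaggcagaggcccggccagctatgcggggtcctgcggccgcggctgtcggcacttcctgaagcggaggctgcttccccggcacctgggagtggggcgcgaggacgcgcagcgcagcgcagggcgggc
Bbc3 (chr7:16310011-16310260, plus strand): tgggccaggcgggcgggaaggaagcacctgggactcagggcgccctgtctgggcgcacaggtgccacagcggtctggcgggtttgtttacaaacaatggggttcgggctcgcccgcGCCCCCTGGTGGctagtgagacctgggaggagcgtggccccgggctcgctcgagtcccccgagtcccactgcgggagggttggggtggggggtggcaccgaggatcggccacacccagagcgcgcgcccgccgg
Dhx30 (chr9:110101088-110101337, minus strand): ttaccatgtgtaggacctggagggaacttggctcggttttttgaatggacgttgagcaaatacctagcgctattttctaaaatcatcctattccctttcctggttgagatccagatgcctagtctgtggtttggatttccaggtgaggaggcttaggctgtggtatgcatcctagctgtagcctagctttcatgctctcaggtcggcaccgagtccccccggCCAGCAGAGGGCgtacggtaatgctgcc
Zfp638 (chr6:83914103-83914352, plus strand): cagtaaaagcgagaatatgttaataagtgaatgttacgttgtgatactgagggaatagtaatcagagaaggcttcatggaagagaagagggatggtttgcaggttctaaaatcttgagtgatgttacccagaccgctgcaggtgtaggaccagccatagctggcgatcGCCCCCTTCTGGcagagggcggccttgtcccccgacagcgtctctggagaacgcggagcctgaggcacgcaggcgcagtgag
Stag1 (chr9:100643198-100643447, plus strand): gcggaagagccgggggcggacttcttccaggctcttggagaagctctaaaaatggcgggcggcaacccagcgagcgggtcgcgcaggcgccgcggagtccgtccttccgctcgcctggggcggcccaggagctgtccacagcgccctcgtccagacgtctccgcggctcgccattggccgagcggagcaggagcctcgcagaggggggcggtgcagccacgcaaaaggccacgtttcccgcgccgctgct

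Scn2a encodes a voltage-gated sodium channel of early neurons, and its internal start lay under an MGE peak of 312 bp (chr2:65668364-65668675) and a telencephalon peak of 443 bp (chr2:65668438-65668880). The match began 100 bp before the start, on the opposite strand, 72 bp from the MGE midpoint and 68 bp from the telencephalon midpoint. At Kcnk13, a two-pore potassium channel gene, the MGE peak was wide (676 bp, chr12:99964247-99964922) and its partner was 256 bp wide. There the match lay 19 bp from the telencephalon midpoint and 127 bp from the MGE midpoint. At Csk, the kinase that restrains Src, the match lay 17 bp and 20 bp from the MGE and telencephalon midpoints of peaks 355 and 369 bp wide. At Dgkz, a diacylglycerol kinase gene, these distances were 48 and 20 bp, and the match began 194 bp before the start. At Bbc3, which encodes the pro-apoptotic protein Puma, they were 24 and 52 bp. At Dhx30, an RNA helicase gene, they were 34 and 42 bp, and at Zfp638, a zinc finger gene, 19 and 71 bp. The matches at Csk, Dgkz and Dhx30 read along the gene, and those at Scn2a, Kcnk13, Bbc3 and Zfp638 read against it. At Stag1 peaks of 488 bp in MGE (chr9:100643236-100643723) and 398 bp in telencephalon lay over a start with no match to these letters, the MGE midpoint being 17497 bp from the nearest gene end. A longer or looser motif was not searched there.

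Shared in-gene peaks were as wide as shared peaks between genes and narrower than shared peaks at gene ends. Their median width was 343 bp in the MGE list (interval 340 to 345 bp, quartiles 284 and 409 bp), against 364 bp at gene ends (359 to 368 bp) and 341 bp between genes (339 to 345 bp). Their telencephalon partners had a median of 346 bp (342 to 350 bp), against 370 bp at gene ends (363 to 379 bp) and 343 bp between genes (339 to 347 bp). Unshared in-gene peaks were narrower, with medians of 244 bp (MGE) and 220 bp (telencephalon). The narrowest MGE width, 244 bp, was the width of 670 shared in-gene peaks (9.85%) and of 2424 of 4374 unshared MGE peaks inside genes (55.4%). Within a pair of partners the widths were only loosely tied: Spearman's rank correlation over the 6800 pairs was 0.28, in 1 library per tissue and with the MGE widths piled up at their minimum. The telencephalon partner was the wider of the pair in 3476 cases and the MGE peak in 3302.

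**Figure D1:**
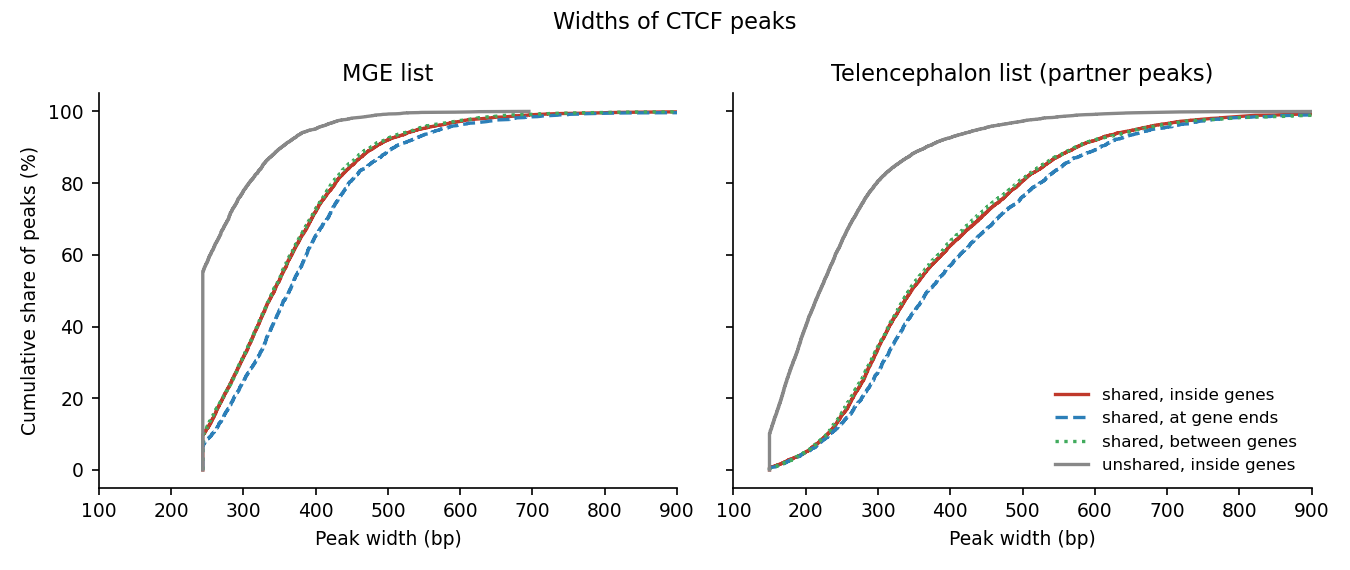
Cumulative share of peaks (y axis, %) by peak width (x axis, bp) for the MGE list (left) and the telencephalon list (right, partners of the shared MGE peaks and unshared peaks). Shared in-gene peaks (red) follow shared intergenic peaks (green), shared gene-end peaks (blue) lie to the right, and unshared in-gene peaks (grey) lie to the left with medians of 244 and 220 bp.

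Overlap was the condition of choice and bounds how far apart partners can lie, so their positions are description. The midpoints of partners lay a median of 48 bp apart (interval 47 to 49 bp), and within 100 bp in 81.3% of pairs. At gene ends and between genes the corresponding medians were 50 and 46 bp. The telencephalon peak covered a median of 85.4% of the MGE peak. Only 46 shared in-gene peaks had the same telencephalon partner as another, and 25 overlapped more than 1 partner. The smallest overlaps were 4 bp at Evx2 (chr2:74655637-74655989), 7 bp at Rab11fip4 and 8 bp at Runx1t1, so that these pairs meet the condition by their edges. The midpoints lay farthest apart at Vit (449 bp), inside the lncRNA Gm14206 (437 bp) and at Vat1l (413 bp), each with a telencephalon partner of 979 bp or more.

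The widest shared in-gene peak of the MGE list, 1221 bp, lay in the lncRNA Gm30568. Peaks of 1195 bp in Tacc2 and 1166 bp in Rimbp2, which encodes a scaffold of the presynaptic active zone, followed. The peaks in Gm30568, Tacc2 and Rimbp2 each overlapped 2 telencephalon peaks. The one overlapping most covered 32.4%, 46.8% and 44.4% of the MGE peak. Peaks of 1039 bp lay in Nxnl1 (chr8:71562269-71563307) and of 1032 bp in the lncRNA Gm14206. Next were peaks of 982 bp in Snx29 (chr16:11423283-11424264), a sorting nexin gene, and of 957 bp in Chrna1 (chr2:73566354-73567310), a subunit of the muscle acetylcholine receptor. A peak of 931 bp lay in the long noncoding gene Sox2ot (chr3:34647136-34648066), 2394 bp from the nearest end of Sox2, the neural stem cell factor whose gene lies inside Sox2ot. It overlapped 2 telencephalon peaks, of which the one overlapping most was 302 bp wide. The peak of 925 bp in Gsdmc4 also overlapped 2, the main one 262 bp wide. The peak of 887 bp in Pigo, a gene of glycolipid anchor synthesis, had a partner of 745 bp. Among telencephalon partners the widest, 1292 bp in Ap5b1 (a subunit of an adaptor complex of endosomes), overlapped MGE peaks of 554 and 457 bp. Partners of 1254 bp in Ccn6, a secreted matrix protein, and of 1247 bp in Ccl19-ps2 followed. At the other extreme were pairs of 244 bp in MGE and 150 bp in telencephalon, the narrowest widths of the lists. Such pairs lay in Sulf1, Tbc1d30, Spidr, Ppard and Celf4, among others.

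Sharing inside genes lay between that at gene ends and that between genes in the MGE list, and it rose with peak width. Of in-gene MGE peaks 60.9% were shared (interval 59.9 to 61.8%), against 82.7% at gene ends (81.4 to 84.0%) and 49.9% between genes (49.0 to 50.9%). The order held in each class of width. At 244 bp 21.7% of in-gene peaks were shared, against 38.0% and 14.7% at gene ends and between genes. From 245 to 302 bp the shares were 60.3%, against 79.4% and 52.6%, and from 303 to 377 bp they were 76.6%, against 91.6% and 66.8%. Above that they were 89.6%, against 95.4% and 84.0%. Sharing and location are the values the rule used, so these shares are description. In the telencephalon list the locations lay closer together: 46.0% of in-gene peaks were shared (45.1 to 46.8%), against 51% at gene ends and 47.5% between genes. In its widest class these shares were 80.0%, 81.3% and 79.5%. The order of the MGE list held in this widest telencephalon class alone. In every narrower class, and over all widths, in-gene peaks were shared less often than peaks between genes. From 207 to 278 bp, for example, the shares were 34.2%, 32.9% and 36.3%. The lists differ in kit and possibly in calling threshold, whose part in this contrast was not tested.

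**Figure D2:**
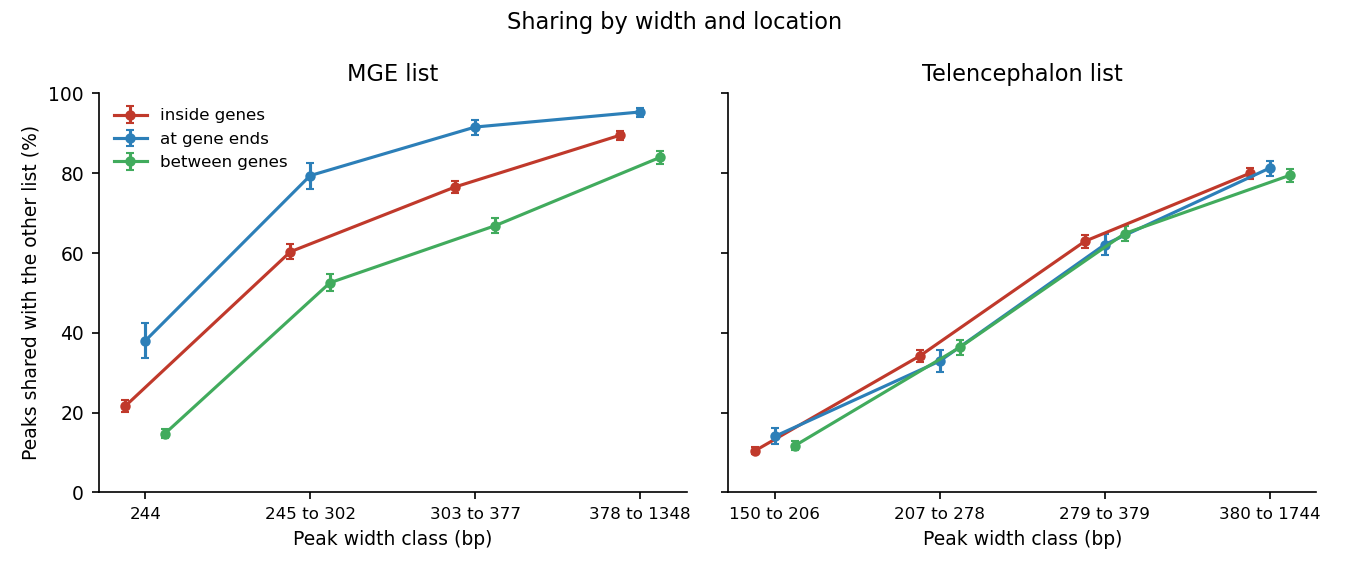
Share of peaks with a partner in the other list (y axis, %) by width class (x axis, bp) for peaks inside genes (red), at gene ends (blue) and between genes (green), with exact 95% intervals as bars. In the MGE list (left) the in-gene line runs between the other lines from 21.7% to 89.6%, and in the telencephalon list (right) the 3 lines lie close together.

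The 6800 peaks lay in 4771 host genes, of which 3995 were protein-coding and 724 were lncRNA genes. Where a midpoint lay in several overlapping genes (339 peaks, 4.99%), the longest was taken as host. Protein-coding hosts held 5868 of the peaks (86.3%) and lncRNA hosts 864 (12.7%). Among all 20661 protein-coding genes on chromosomes 1 to 19, 19.3% were hosts. Most hosts, 3465 (72.6%), had 1 such peak, 894 had 2, 254 had 3 and 158 had 4 or more. Hosts with 2 or more held 49.0% of the peaks.

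Hosts were long genes. Protein-coding hosts had a median length of 59411 bp (interval 56881 to 62792 bp), against 13141 bp (12729 to 13535 bp) for protein-coding genes without a shared in-gene peak. The share of genes that were hosts was 3.15% below 10 kb, 15.1% from 10 to 30 kb, 30.1% from 30 to 100 kb, 55.2% from 100 to 300 kb, 71.3% from 300 to 1000 kb and 85.5% (47 of 55) above. Part of this follows from the rule, since a gene below 2 kb has no room more than 1 kb from both ends. The number of peaks per length was highest in shorter genes. It was 7.95 peaks per Mb of gene below 10 kb, 9.38 from 10 to 30 kb, 7.27 from 30 to 100 kb, 5.68 from 100 to 300 kb, 3.59 from 300 to 1000 kb and 2.20 above. These values divide by full gene length, including the sequence within 1 kb of gene ends that the rule leaves out. They therefore understate the number of peaks per length open to peaks, most of all in the shortest genes. Genes of 100 kb or more held 40.5% of shared in-gene peaks (interval 39.3 to 41.7%), against 59.5% of unshared in-gene peaks of the MGE list (58.0 to 60.9%) and 44.6% of those of the telencephalon list (43.5 to 45.7%).

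**Figure D3:**
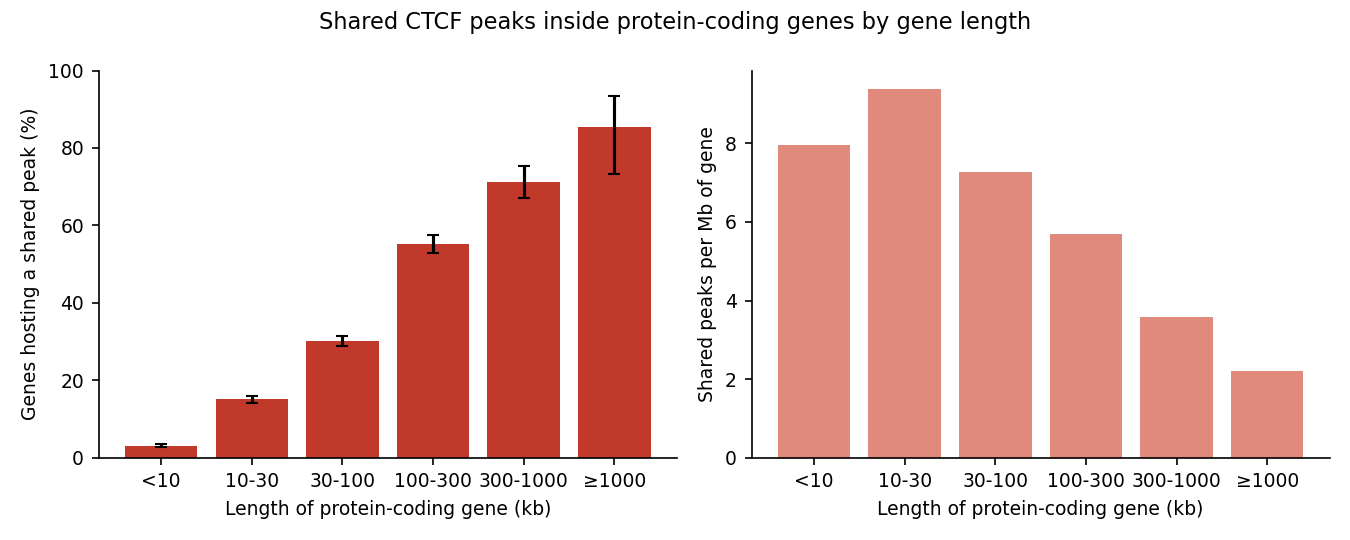
Left, share of protein-coding genes that host at least 1 shared in-gene peak (y axis, %, with exact 95% intervals) by gene length (x axis, kb). Right, shared in-gene peaks per Mb of full gene length in the same classes: hosts become more frequent with length, from 3.15% to 85.5%, while peaks per Mb fall to 2.20 in the longest class, against 9.38 at 10 to 30 kb.

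Gse1, a coiled-coil protein of histone deacetylase complexes, had the most shared in-gene peaks. Its 13 sites lay between 19.3 and 342 kb from the start (chr8:120228501-120581383, 353 kb), 15 MGE and 18 telencephalon peaks being present in all. The 13 MGE widths ran from 244 to 486 bp and the telencephalon widths from 175 to 510 bp. Camta1, a calmodulin-binding transcription factor gene of 802 kb (chr4:151059523-151861768), had 12 sites among 16 MGE and 24 telencephalon peaks. Of these 12, 5 lay beyond 87.8% of the gene's length, at 704.7, 720.0, 722.1, 766.4 and 788.3 kb from the start.

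Lsamp, an IgLON adhesion molecule of limbic neurons, and Pde4d, a phosphodiesterase that degrades cyclic AMP, had 10 shared sites each. In Lsamp (chr16:39984254-42181679, 2197 kb) 16 of 27 MGE peaks were unshared, whereas 6 of 18 telencephalon peaks were. Most of these unshared MGE peaks had the narrowest width, 244 bp, at which 21.7% of all in-gene MGE peaks were shared. Near its end lay 3 sites, 2181, 2186 and 2188 kb from the start, with MGE widths of 467, 521 and 468 bp. In Pde4d (chr13:108654177-109955969, 1302 kb) the first site lay 556 kb from the start and the last 1254 kb from it. No shared peak more than 1 kb from a gene end lay before the first.

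Asic2, a proton-gated sodium channel gene of 1088 kb, had 9 shared sites among 10 MGE and 18 telencephalon peaks. No MGE peak there was unshared, while 8 telencephalon peaks were. Its first site lay 334 kb from the start. Nav2, a microtubule-associated guidance gene, and Ank3, which encodes the ankyrin of the axon initial segment, also had 9 sites, as did Ksr2, a scaffold of the MAP kinase cascade. Ntm, another IgLON gene, had 8 and Rbfox1, a neuronal splicing regulator, had 7. The sites farthest from any gene end lay in Rbfox1, at chr16:6791570-6791827 (620782 bp from an end) and chr16:6839685-6840017 (572629 bp). A site in Lsamp followed (542868 bp).

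**Figure D4:**
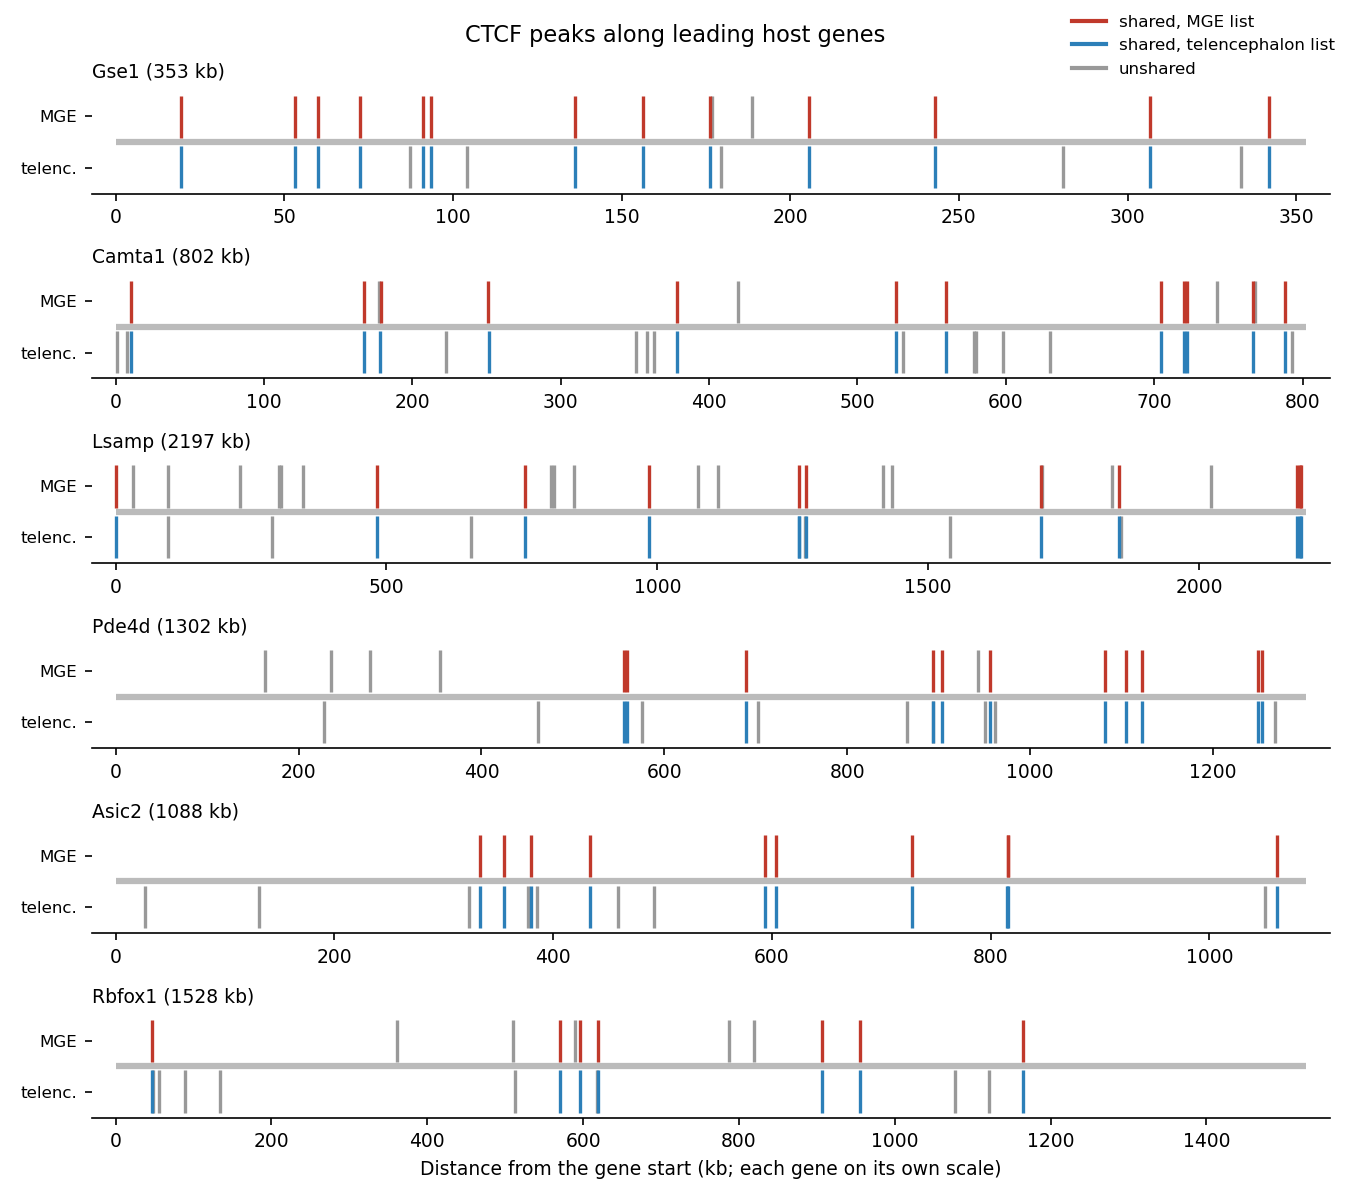
CTCF peaks along 6 of the host genes with the most shared in-gene peaks, drawn by distance from the gene start (x axis, kb, each gene on its own scale), MGE peaks above and telencephalon peaks below the gene line. Coloured ticks are shared peaks, including any at a gene end, and grey ticks are unshared: Gse1 has 13 shared in-gene sites, Lsamp has 16 unshared MGE peaks, and the first such site of Pde4d lies at 556 kb.

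In some hosts the sites were packed closely. In Ksr2 8 of the 9 lay within 22.8 kb (chr5:117494101-117516854), 80.2 to 102.7 kb from the start of a 354 kb gene, and each list had exactly 8 peaks there. MGE widths in that stretch were 244 to 417 bp and telencephalon widths 203 to 587 bp. The next most packed were 5 sites within 15.3 kb of Msrb3, a methionine sulfoxide reductase gene (chr10:120861268-120876585), and 5 within 23.5 kb of the lncRNA Gm39116 (chr7:142714735-142738194). Windows of 25 kb were used here, a choice made after the values were seen. By peaks per length among hosts with 4 or more, Gm39116 (17.0 per 100 kb) and the lncRNA Gm14206 (15.9 per 100 kb) led. Tmprss9, a membrane serine protease gene (14.1 per 100 kb), Npcd (8.34) and Zfp64, a zinc finger gene (8.03), followed. In Tmprss9 2 of the 4 MGE peaks had the same telencephalon partner of 707 bp, and in Msrb3 2 of the 5 had the same partner of 1014 bp. Over all hosts, neighbouring sites of 1 gene lay a median of 17960 bp apart (interval 16366 to 20405 bp), within 1 kb in 4.24% of cases and within 10 kb in 37.2%.

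Very long genes without a shared in-gene peak were few but prominent. The longest were Lrp1b, a lipoprotein receptor gene (2058 kb, chr2:40595290-42653598), Fhit (1612 kb), Naaladl2 (1346 kb), Cntn5, a contactin adhesion gene (1271 kb), and Nrg3, a neuregulin (1108 kb). They were not without peaks. Lrp1b had 9 MGE peaks and 1 telencephalon peak, Cntn5 had 10 and 4, Naaladl2 had 9 and 1, Nrg3 had 6 and 2, and Fhit had 1 and 1, none of them shared.

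Shared in-gene peaks leaned toward the end of the host gene. For the 5338 whose host had a start in the RefSeq table, the midpoint lay at a median of 55.9% of the way from start to end (interval 54.3 to 57.3%). The corresponding medians were 47.9% for 3302 unshared MGE peaks inside genes (46.5 to 49.5%) and 52.5% for 6177 unshared telencephalon peaks (51.4 to 53.9%). Of 10 equal parts of the gene, the first held 8.04% of shared in-gene peaks, the ninth 12.6% and the last 11.4%. For unshared MGE peaks these shares were 9.12%, 9.81% and 8.21%, and for unshared telencephalon peaks 9.36%, 11.6% and 9.47%. Beyond the midpoint of the gene lay 55.4% of shared in-gene peaks (54.0 to 56.7%), against 47.6% (45.9 to 49.3%) and 52.6% (51.3 to 53.8%). The lean was clearest in hosts of 30 to 100 kb (56.9%, interval 54.5 to 59.2%) and 100 to 300 kb (57.7%, 55.0 to 60.3%). Unshared telencephalon peaks leaned too in hosts of 30 to 100 kb (54.6%, 52.4 to 56.8%), with an interval that overlapped that of shared peaks. For shared in-gene peaks in the other length classes but that of 300 to 1000 kb (55.0%, 51.1 to 58.8%) the interval included 50%: below 10 kb (50.8%, 45.1 to 56.5%), from 10 to 30 kb (581 of 1112 peaks, 52.2%, 49.3 to 55.2%) and above 1000 kb (65 of 130 peaks, 41.1 to 58.9%). The rule also leaves out peaks near the ends of other genes that lie inside a host, and its part in the position was not tested.

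**Figure D5:**
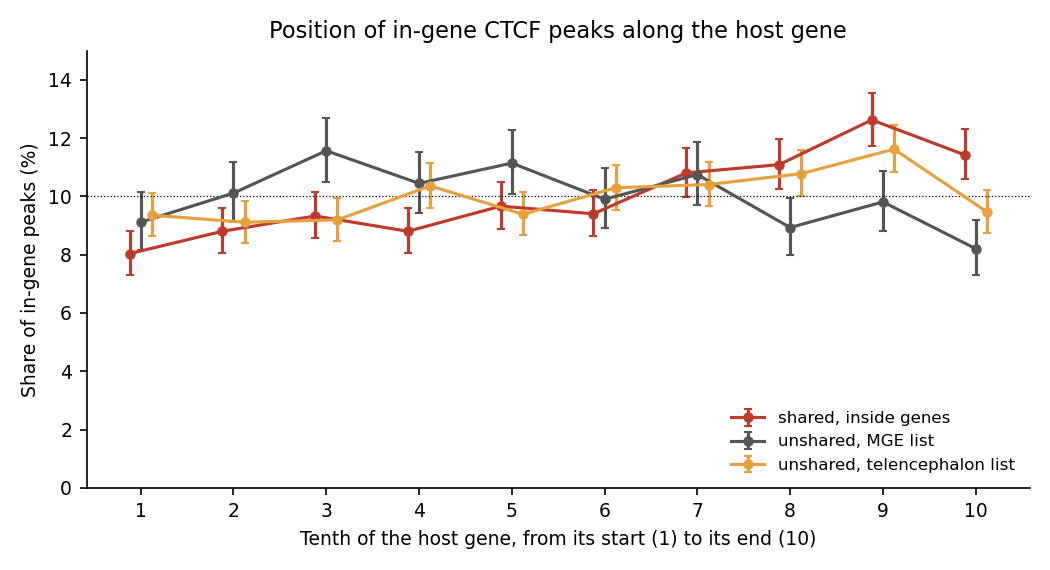
Share of in-gene peaks (y axis, %) in each of 10 equal parts of the host gene from start to end (x axis), with exact 95% intervals as bars and an even spread of 10% as a dotted line. Shared in-gene peaks lie below the line in the first part (8.04%) and above it in the ninth (12.6%), where unshared MGE peaks hold 9.81%.

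Shared in-gene peaks lay closer to gene ends than unshared ones did. The median distance to the nearest end was 8730 bp (interval 8395 to 9010 bp), against 17478.5 bp for unshared in-gene MGE peaks (16428 to 18349 bp) and 10156 bp for unshared telencephalon peaks (9696 to 10553 bp). More than 100 kb from any end lay 185 of the 6800 (2.72%). The limit of 1 kb to every gene end holds for each of these sets, and distance to an end was used by the rule, so these values are description. The shorter hosts of shared peaks go with these distances. Median host length per peak was 70729 bp for shared in-gene peaks, against 144599 bp for unshared MGE and 84060 bp for unshared telencephalon peaks. By chromosome, shared in-gene peaks numbered 7.78 per Mb of gene-covered sequence on chromosome 11 and 7.56 on chromosome 19, and the fewest, 4.35, on chromosome 18. Their share of all shared peaks varied less, from 42.3% on chromosome 18 to 50.9% on chromosome 19.

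Host genes were then grouped by function in lists, as a description without an enrichment test. Across protein-coding genes 19.3% were hosts, but many neural genes are long. Each list is therefore also set beside the average share of hosts among all protein-coding genes of its members' length classes, a value that carries no chance range.

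In the synaptic adhesion list 30 of 50 genes were hosts (60%, interval 45.2 to 73.6%), against 56.1% for genes of these lengths, with 76 shared in-gene peaks and 2.66 per Mb. Lsamp, Ntm and Nrxn3, a presynaptic neurexin with 6 sites, had the most. Synaptic scaffolds had 25 of 37 (67.6%, 50.2 to 82%), against 56.2%. Dlgap1, a postsynaptic scaffold, led with 7, and 2 of its MGE peaks (401 and 408 bp) met the same telencephalon peak of 950 bp. Dlg2 (PSD-93) and Shank2 had 5 each, and in Dlg2 25 MGE peaks stood beside 9 telencephalon peaks. Glutamate and GABA receptor genes were hosts in 17 of 37 cases (45.9%, 29.5 to 63.1%), against 51.3%. Grik4 and Gabra5 had 3 each. The Gabra5 sites had MGE widths of 324, 244 and 371 bp and telencephalon widths of 197, 177 and 309 bp.

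Axon guidance and migration genes were hosts in 33 of 54 cases (61.1%, interval 46.9 to 74.1%), against 52.5%. Robo1 and Robo2, receptors of the Slit repellents, had 7 and 6 sites, and Ephb2, an ephrin receptor, had 5 in 189 kb. The Robo1 MGE widths were 291, 358, 331, 597, 244, 328 and 287 bp, and its telencephalon widths 345, 510, 213, 308, 323, 248 and 341 bp, in order along the chromosome. Cadherins and unclustered protocadherins had 28 of 50 (56%, 41.3 to 70%), against 46.1%, led by Cdh13 (6), Cdh23 (5) and Pcdh15 (4). This list also counts catenin genes, such as Ctnna2 and Ctnnd2. Voltage-gated channels had 32 of 49 (65.3%, 50.4 to 78.3%), against 53.9%. The channel list also counts channel-interacting proteins, such as Kcnip1, and channels opened by ions, such as Kcnn2 and Kcnt2. Cacna1a, the pore of P/Q-type calcium channels, had 7, with MGE widths of 261 to 494 bp and telencephalon widths of 320 to 548 bp. Kcnq3 and Kcnma1 had 5 and 4.

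Lists of nuclear regulators had these counts. Forebrain transcription factors had 23 of 70 (32.9%, interval 22.1 to 45.1%), against 36.8%. Zfp536 led with 6 sites, 5 of them between chr7:37346026 and chr7:37374266. Cux2, an upper-layer factor, had 4 and Sox5 had 3. The Sox5 sites were narrow, with medians of 244 bp in MGE and 198 bp in telencephalon. RNA-binding and splicing genes had 14 of 45 (31.1%, 18.2 to 46.6%), against 43.1%, with Rbfox1 and Celf4 at 7 and Rbfox3 at 6. Chromatin regulators had 21 of 60 (35%, 23.1 to 48.4%), against 39.7%. Kdm2b, a histone demethylase, had 4 and Chd9, a chromatin remodeller, had 3. Stag1 and Nipbl, the cohesin loader, were among the hosts. Notch, Wnt and hedgehog genes had 18 of 52 (34.6%, 22 to 49.1%), against 30.5%, led by Tcf7l1 with 3 and by Maml3 and Tcf7l2 with 2.

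Collagens and matrix genes had 31 of 54 (57.4%, interval 43.2 to 70.8%), against 45.1%, with 4 sites in Col26a1 and Col4a2 and 3 in Adamtsl1. Muscle and heart genes had 17 of 40 (42.5%, 27 to 59.1%), against 31.5%, with 3 in Ttn, the giant sarcomere protein, 3 in Dysf and 2 in Nebl. Vascular genes had 12 of 33 (36.4%, 20.4 to 54.9%), against 27.7%. Vwf, the clotting factor of endothelium, had 5 in 134 kb, with MGE widths of 381, 447, 246, 314 and 329 bp and telencephalon widths of 530, 419, 479, 247 and 417 bp. Col4a2, also counted among the collagens, had 4 and Cspg4, a pericyte proteoglycan, had 3 in 34.8 kb. Blood genes had 9 of 35 (25.7%, 12.5 to 43.3%), against 27.9%, and none had more than 1. Dock2, Bach2 and Runx1 were the longest of these hosts. Peak lists hold no expression, and the tissues' cell makeup was not measured.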

How the data were processed

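Peak lists of the MGE CTCF and telencephalon CTCF libraries were used. Per the submitters' processing notes, the authors used Bowtie2 2.3.2 and MACS2 2.1.1.20160309 on mm10. No source used here states the threshold or control, and the track names in the file headers differ (ctcf_p01 for MGE, e14_ctcf_p001 for telencephalon). The deposited files hold peak coordinates alone, with no score, signal or counts. Genes came from the RefSeq table of GRCm38.p6, which has mm10 coordinates. It gives no exons, so exons and introns were not separated. Strand and sequence came from the RefSeq start table, which served 3753 of 4771 hosts. Python 3.11.15, pandas 2.3.3 and scipy 1.17.1 were used, and the classification was tested on simulated data. All coordinates are 1-based.

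The members and gene lists were chosen with earlier results of these data known. The internal starts and motif were added after seeing the reference tables. Named hosts are those with the most sites overall (10), per length (5) and in each list (3), the widest, narrowest, farthest shifted and most internal sites, and the longest genes without one. No genome sequence was used. Of the 15 gene lists, 1 is not reported here, nor are 2 hosts that the rule names.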

Additional observations from a re-analysis of the deposited data

How the results depend on the processing

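Of 88 values recomputed under 8 alternatives, 57 kept within the interval of the main value (for counts, within 1.5 times). No paired analysis was possible because each tissue has 1 library, and no library could be left out. Gene ends of 5 kb gave 4471 shared in-gene peaks in 3108 hosts, 30.3% of shared MGE peaks, median widths of 339 and 338 bp in MGE and telencephalon, a host length of 79273.5 bp, 51.8% in hosts of 100 kb or more, 56.2% of in-gene MGE peaks shared and a spacing of 21956 bp. Gene ends of 500 bp gave 49.9%, a host length of 45299.5 bp, 38.3% in long hosts and 62.0% shared. Protein-coding genes alone gave 41.5%, 57923 bp, 43.9% and 62.1%. An overlap of 50% of both peaks gave a median MGE width of 346.5 bp and 53.9% shared. Leaving out MGE peaks of the narrowest width gave medians of 354.5 bp in MGE and 354 bp in telencephalon and 75.9% shared. The wider 50% of each list gave 3758 peaks in 3028 hosts, 45.1% of shared MGE peaks, medians of 388 and 411 bp, 37.0% in long hosts, 67.8% shared, a position 58.0% along the gene, and 223 listed genes as hosts against 341. Here 7 of the 15 gene lists fell by more than 1.5 times, and in no other alternative did any list. Fewer peaks enter this alternative and the one with 5 kb ends by construction. The lean toward the gene end kept its direction in all 8. Depth and calling thresholds are unknown and limit every share.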
